A study of Mus musculus with 9 samples.

Results

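Heat shock proteins and their DnaJ partners were followed as a gene family through 9 open chromatin profiles of mouse brain endothelial cells (ECs). A gene was a member when its name in the annotation of any of the 9 peak lists began with Hsp and then a, b, d, e or h, or began with Dnaj. This rule found 66 genes among 20035 gene names, and all 66 occur in the GENCODE M21 annotation. They comprise 12 genes of the HSP70 and HSP110 families, 6 small heat shock proteins, the 2 genes of the mitochondrial chaperonin, 3 genes of associated proteins, and 4, 12 and 27 J-domain genes of classes A, B and C. The rule reads the names given to peaks, so a gene named on no peak could not enter.

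Chaperones hold unfolded proteins in a state from which they can fold. HSP70 proteins bind and release clients in a cycle driven by ATP, J-domain proteins bring the client and start ATP hydrolysis, and HSP110 proteins reset the cycle by exchanging the nucleotide. Small heat shock proteins keep aggregating clients soluble without ATP, and the chaperonin formed by Hspd1 and Hspe1 folds proteins inside mitochondria. Part of the family is transcribed in every cell, and part is induced by heat shock factors, which bind repeated units of the letters GAA and TTC in promoters and often find those promoters already open.

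Omni-ATAC-seq, which inserts adapters into accessible DNA with the Tn5 transposase, was applied to nuclei of purified brain ECs from C57BL/6J mice. The study used mice of both sexes, and the sex of the mice behind each library is not given. The groups were young WT Cre (n = 2), young EC-K4KO (n = 3), old WT Cre (n = 2) and old EC-K4KO (n = 2). EC-K4KO mice combined a floxed Klf4 with a tamoxifen-induced Cre under the endothelial Cdh5 promoter (CDH5-CreERT2). The WT Cre controls of both ages carried the same Cre and received tamoxifen as well. According to the study, tamoxifen was given at the same early adult age, so old mice were profiled longer after it than young mice. How many mice entered 1 library is not given in the sources used here, so p-values measure the spread between libraries. Library names of young and old mice carry different prefixes, and prefix and age cannot be told apart.

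The 9 lists held 6157 and 9598 peaks in young WT Cre, 23848 to 27992 in young EC-K4KO, 32555 and 43893 in old WT Cre and 39079 and 45026 in old EC-K4KO, and the sequencing depth behind them is unknown. A peak centred within 1000 bp of the start site of the gene it is named for is called a promoter peak below. Rank is the position of a gene's strongest promoter peak in its own list ordered by -log10 p, with 1 for the strongest peak. Lists differ in length, so a rank is a position among the peaks of its library and not a height. Klf4, the deleted gene, had a promoter peak in all 9 libraries, at ranks 911 to 1414 in young EC-K4KO, 2467 and 3588 in young WT Cre, 3387 and 3502 in old EC-K4KO and 4166 and 5797 in old WT Cre. Where the floxed segment lies relative to this peak was not checked here, so its presence is no check of the deletion. Of 16 endothelial marker genes, 7 to 15 had a promoter peak per library, and 6 or 7 had one among the 6157 strongest peaks. Microglia and neutrophil markers had none (0 of 8 each in every library). Promoter peaks were found for 0 to 5 of 8 mural markers, 0 to 3 of 8 astrocyte markers, 0 to 2 of 8 oligodendrocyte markers and 0 to 4 of 8 neuron markers, and for 0 of each among the 6157 strongest peaks. In bulk nuclei, fewer cells with an open site and less accessibility per cell cannot be told apart.

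A promoter peak was present for 57 of the 66 chaperone genes in at least 1 library, for 20 in all 9 libraries and for 37 in 1 to 8 libraries. The 9 genes with none were Dnajb4, Dnajb5, Dnajb8, Dnajb12, Dnajb13, Dnajb14, Dnajc5b, Dnajc6 and Hspb7. Of the 57 genes, 35.1% had the peak in all 9 libraries, against 25.6% of the 12755 genes of the whole series with a promoter peak anywhere. The 20 genes belong to several branches of the family. HSP70 and HSP110 supplied 8 of them (Hspa1a, Hspa1b, Hspa2, Hspa4, Hspa8, Hspa9, Hspa13 and Hsph1), class C supplied 9 (Dnajc1, Dnajc2, Dnajc3, Dnajc5, Dnajc10, Dnajc13, Dnajc16, Dnajc17 and Dnajc27), and Dnajb1, Hspb1 and Hspbp1 completed the set. Across 388 promoter peaks of the family, 87.1% were centred within 250 bp of the start site. The promoter peak farthest from its start site was 860 bp away (Hspb9 in young EC-K4KO replicate 3), and the nearest peak outside the window was 1871 bp away (Hspb8 in old EC-K4KO replicate 1).

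**Figure D1:**
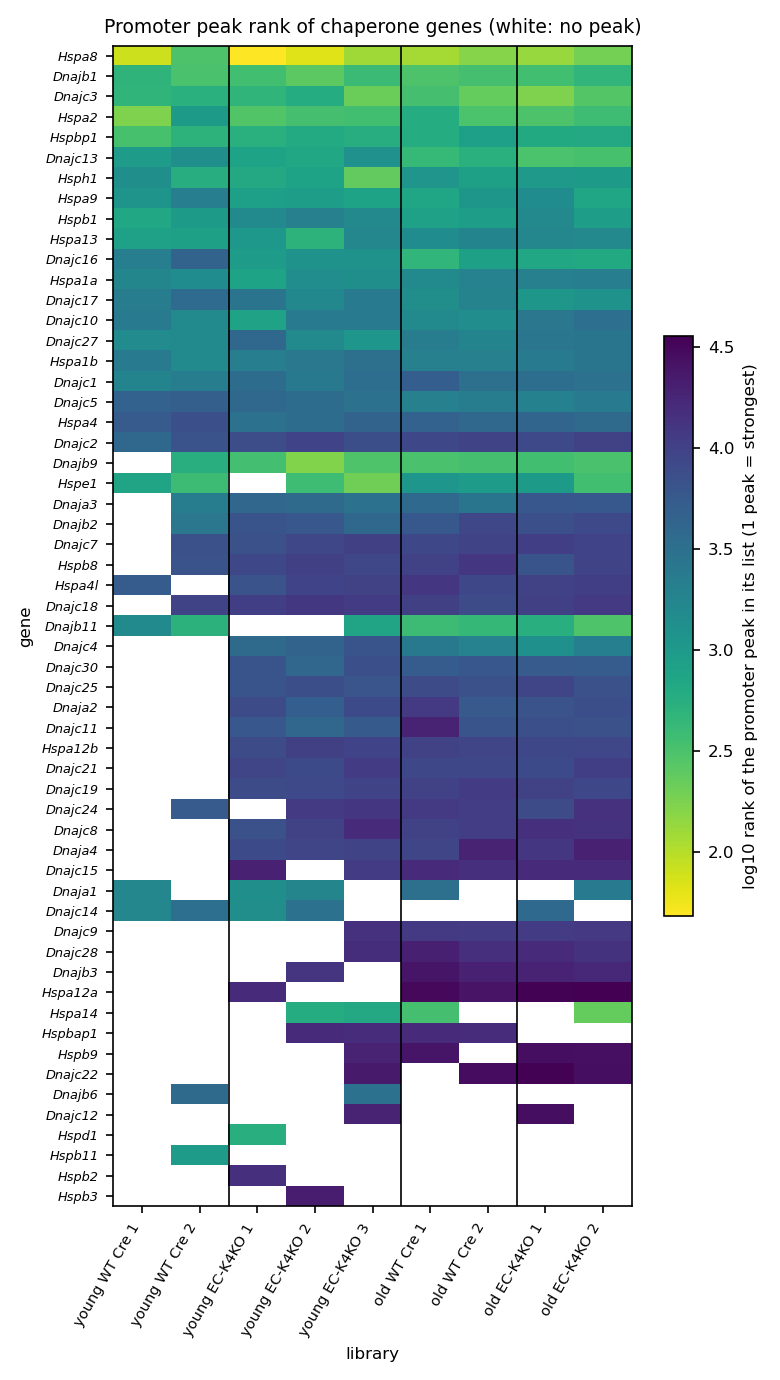
Rank of the promoter peak of each chaperone gene (rows, 57 genes ordered by number of libraries and mean rank) in each of the 9 libraries (columns, groups divided by lines), as the log10 of the position in the list, with white for no peak. The upper 20 genes are filled in all columns, and the block below is white mainly in the 2 young WT Cre columns.

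Hspa8, the constitutive HSP70 of the cytosol, had the best mean rank of the family (136.2). It ranked 80 and 302 in young WT Cre, 48, 67 and 123 in young EC-K4KO, 117 and 161 in old WT Cre, and 135 and 193 in old EC-K4KO. The peak of young WT Cre replicate 2 stood lowest, and the other 8 libraries placed it within the first 193 peaks. Its fold enrichment over local background was 6.11 to 9.59 over the 9 libraries, a narrow range beside its -log10 p of 19.2 to 285.6.

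Dnajb1, the main class B partner of cytosolic HSP70, had the next best mean rank (364.8) of the 20 genes found in all libraries. Its ranks were 488 and 322 in young WT Cre, 354, 256 and 392 in young EC-K4KO, 308 and 342 in old WT Cre, and 356 and 465 in old EC-K4KO. Young and old libraries overlapped, and both old WT Cre libraries stood above both of old EC-K4KO. Dnajc3, a J-domain protein of the endoplasmic reticulum that also inhibits the kinase PERK, ranked 475 and 534 in young WT Cre, 472, 591 and 214 in young EC-K4KO, 335 and 231 in old WT Cre, and 172 and 284 in old EC-K4KO. The 4 old libraries stood above both young WT Cre libraries, but young EC-K4KO spanned both ranges. Hspa2, an HSP70 best known from spermatogenesis, ranked 175 and 976 in young WT Cre, 292, 337 and 357 in young EC-K4KO, 604 and 312 in old WT Cre, and 303 and 371 in old EC-K4KO. The pair of young WT Cre libraries gave its highest and lowest rank.

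Hspbp1, a nucleotide exchange factor of HSP70, ranked 331 and 493 in young WT Cre, 538, 626 and 578 in young EC-K4KO, 591 and 849 in old WT Cre, and 641 and 659 in old EC-K4KO. Here both young WT Cre libraries stood above all others. Hsph1, the inducible HSP110, ranked 1341 and 582 in young WT Cre, 668, 769 and 235 in young EC-K4KO, 1136 and 841 in old WT Cre, and 1006 and 981 in old EC-K4KO, with overlap between young and old. Hspa9, the mitochondrial HSP70, ranked 1187 and 2138 in young WT Cre, 864, 904 and 774 in young EC-K4KO, 732 and 1095 in old WT Cre, and 1428 and 728 in old EC-K4KO. The young WT Cre peak of replicate 2 was again the lowest. Hspa13, an HSP70 of microsomes, ranked 812 and 848 in young WT Cre, 1068, 496 and 1695 in young EC-K4KO, 1428 and 1844 in old WT Cre, and 1672 and 1607 in old EC-K4KO. Its old libraries lay below both young WT Cre libraries, and 1 young EC-K4KO library lay among them. Dnajc13 and Hspb1, the remaining genes of the first 10, are described with the comparisons of groups.

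In 4 of the stress-inducible genes (Hspd1, Hspe1, Dnajb4 and Dnaja1) the peak over the start was named for a neighbour in some libraries. Hspd1 and Hspe1, the large and small subunit of the chaperonin, are transcribed in opposite directions from 1 promoter, and 1 peak covered both start sites in every library. That peak was named Hspe1 in 8 libraries and Hspd1 in young EC-K4KO replicate 1, which is why Hspd1 counted in 1 library. Its ranks were 757 and 390 in young WT Cre, 549, 380 and 204 in young EC-K4KO, 1101 and 923 in old WT Cre, and 969 and 353 in old EC-K4KO. The 3 young EC-K4KO ranks lay within or above those of young WT Cre and overlapped those of the old libraries. Dnajb4, a heat-inducible class B protein, had no promoter peak of its own name, but a peak covered one of its GENCODE start sites in 8 libraries, named for the adjacent Fubp1 in 7 of them. The peaks named Fubp1 ranked 2255 in young WT Cre replicate 2 and 2747, 2898 and 1677 in young EC-K4KO. They ranked 2715 in old WT Cre replicate 2, and 3053 and 2162 in old EC-K4KO. In old WT Cre replicate 1 a different peak, named Dnajb4 and ranked 9224, covered another of its start sites. Peaks named Dnajb4 in that region occurred in 6 libraries at ranks 9224 to 12170. These were 2 young EC-K4KO libraries and all old libraries. Young WT Cre replicate 1 had no peak over a start site of Dnajb4. Dnaja1, the main class A partner of cytosolic HSP70, had a peak over its start in all 9 libraries, named for the predicted gene Gm6297 in 4. Its ranks over the start were 1694 and 1436 in young WT Cre, 1346, 1757 and 1854 in young EC-K4KO, 3161 and 2294 in old WT Cre, and 2730 and 2294 in old EC-K4KO. All 4 old libraries stood below all 5 young ones.

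Names also moved for Hspa14 (to Cdnf), Dnajb6 (to Gm5129), Dnajb9 (to Mir5627), Dnajb11 (to Tbccd1), Dnajc14 (to Tmem198b), Hspb11 (to Lrrc42) and Hspbap1 (to Dirc2). Counting any peak over a start site, whatever its name, gave 58 members in at least 1 library and 28 in all 9. Hspa14, a ribosome-associated HSP70, then had ranks of 129 to 667 in all 9 libraries, although its name stood on a promoter peak in only 4. Dnajb9, a J-domain protein of the endoplasmic reticulum, had ranks of 78 to 552 by that count. Dnajb11, an HSP70 partner in the endoplasmic reticulum, had ranks of 298 to 1566.

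Hspa1a and Hspa1b, the inducible HSP70 pair, lie close together on chromosome 17. Hspa1a ranked 1741 and 1425 in young WT Cre, 773, 1398 and 1338 in young EC-K4KO, 1579 and 1896 in old WT Cre, and 2016 and 2141 in old EC-K4KO. Hspa1b ranked 2276 and 1520 in young WT Cre, 2132, 2564 and 3167 in young EC-K4KO, 2013 and 2018 in old WT Cre, and 2345 and 2727 in old EC-K4KO. Both promoters were thus open in all 9 libraries, with Hspa1a the higher of the pair in each. Reads from this pair may be shared, since 247 of the 250 bases before the start sites (98.8%) are identical in RefSeq. Reads of low mapping quality were removed by the authors, so signal in the identical part may be underestimated in either gene.

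The promoter sequences below show where the letters bound by heat shock factors lie in some members that hold them. They are taken from RefSeq on GRCm38.p6. Capitals mark the heat shock element of 2 units, searched as GAANNTTC and TTCNNGAA on both strands, with overlapping matches counted. The first is the whole stretch between the start sites of Hspd1 and Hspe1 (chr1:55087933-55088147, + strand), and the others are the 150 bases before the start site of Dnajb6 (chr5:29735748-29735897, + strand), Hspb1 (chr5:135887769-135887918, + strand), Hspa1a (chr17:34972157-34972306, - strand), Hspa1b (chr17:34959239-34959388, - strand) and Hsph1 (chr5:149636337-149636486, - strand).
Hspd1 to Hspe1: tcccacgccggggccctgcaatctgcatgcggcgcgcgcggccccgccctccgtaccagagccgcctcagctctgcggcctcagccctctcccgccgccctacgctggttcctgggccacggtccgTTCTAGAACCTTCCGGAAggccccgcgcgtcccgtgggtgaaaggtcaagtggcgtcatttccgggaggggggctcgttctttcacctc
Dnajb6: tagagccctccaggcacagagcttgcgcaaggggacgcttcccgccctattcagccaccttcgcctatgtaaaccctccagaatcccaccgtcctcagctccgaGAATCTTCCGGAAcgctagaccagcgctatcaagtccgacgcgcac
Hspb1: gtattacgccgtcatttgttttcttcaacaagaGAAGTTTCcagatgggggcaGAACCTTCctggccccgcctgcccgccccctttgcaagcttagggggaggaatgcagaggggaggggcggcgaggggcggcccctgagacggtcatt
Hspa1a: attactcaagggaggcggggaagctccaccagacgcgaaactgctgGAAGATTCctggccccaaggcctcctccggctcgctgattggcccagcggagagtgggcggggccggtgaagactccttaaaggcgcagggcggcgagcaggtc
Hspa1b: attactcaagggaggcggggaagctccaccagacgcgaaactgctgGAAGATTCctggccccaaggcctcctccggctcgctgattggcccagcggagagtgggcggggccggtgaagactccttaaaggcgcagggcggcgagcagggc
Hsph1: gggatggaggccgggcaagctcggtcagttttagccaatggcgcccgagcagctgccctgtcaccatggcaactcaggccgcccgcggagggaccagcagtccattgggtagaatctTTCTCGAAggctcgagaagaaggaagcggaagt

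The 2-unit element was found in 13 of 54 members with a RefSeq promoter, at 17 distinct sites. Among the stress-inducible genes with a RefSeq promoter, only Dnajb1 held none. By window of 250 bases before a start site, 21.4% of 70 windows of the family held it, against 12.8% of 32851 windows of all genes. An element of 3 alternating units at the same spacing was found in 5.71% of the family's windows against 0.466% of all, in Hspd1, Hspe1 and Dnajb6 only. These were 4 windows, and they came from the promoter shared by Hspd1 and Hspe1 and from 1 stretch of Dnajb6. Each stretch was counted more than once. The GC box GGGCGG was in 70% of the family's windows against 32.7%, the KLF letters CCACCC in 37.1% against 28.1%, the CCAAT letters in 31.4% against 33.8% and the TATAAA letters in 4.29% against 12.4%. A match is a description of letters and was not read as a bound site. The members without a RefSeq entry were Dnajc2, Dnajc5, Dnajc5b, Dnajc11, Dnajc12, Dnajc18, Dnajc22, Dnajc30, Hspa8, Hspa9, Hspa13 and Hspb2.

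Of the 17 sites, 11 lay under a peak in all 9 libraries. These were the sites printed above in Hspd1 and Hspe1, Dnajb6, Hspb1, Hspa1a, Hspa1b and Hsph1, and 1 site of Dnaja1 (position -124 from its start). The site of Dnajc10, a disulfide reductase of the endoplasmic reticulum, lay under a peak in 7 libraries, all but young WT Cre replicate 2 and young EC-K4KO replicate 1. Of the 2 sites of Dnaja4, a class A protein, 1 was covered in the 7 libraries other than young WT Cre, and the other in 6 of these, all but young EC-K4KO replicate 1. The site of Dnajb4 was covered in the same 6 libraries. The site of Dnajc27 was covered in old EC-K4KO replicate 1 alone, and that of Hspb3, a small heat shock protein of muscle, in none.

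Fewest chaperone promoters were found in the 2 shortest lists, those of young WT Cre. Members with a promoter peak numbered 25 and 32 in young WT Cre (28.5 ± 4.95, mean ± SD, n = 2), 43, 45 and 49 in young EC-K4KO (45.7 ± 3.06, n = 3), 49 and 47 in old WT Cre (48.0 ± 1.41, n = 2) and 49 and 49 in old EC-K4KO (49.0 ± 0, n = 2). Both young WT Cre libraries stood below the other 7, which overlapped among themselves. As a share of the 57 genes this was 43.9% to 56.1% in young WT Cre and 75.4% to 86% in the other groups. Over all genes the share was 30.5% and 42.5% in young WT Cre and 64.1% to 85.7% elsewhere.

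Among the 6157 strongest peaks of each list, the count was 25 and 27 in young WT Cre (26.0 ± 1.41, n = 2), 26, 30 and 27 in young EC-K4KO (27.7 ± 2.08, n = 3), 28 and 26 in old WT Cre (27.0 ± 1.41, n = 2), and 26 and 27 in old EC-K4KO (26.5 ± 0.707, n = 2). At equal length all 4 groups overlapped. The family held 43.9% to 52.6% of its genes there, against 30.5% to 36.4% of all genes. In the equal-length lists 37 members occurred at least once and 18 in all 9, and 20 members with a promoter peak never did.

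**Figure D2:**
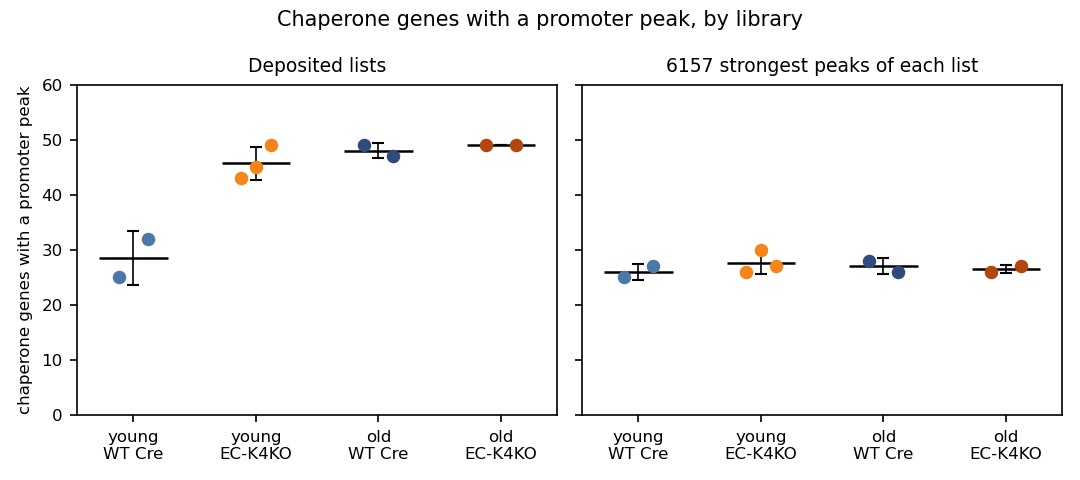
Chaperone genes with a promoter peak in each library (points, y axis in genes) by group, with the group mean (line) and SD (bar), for the deposited lists on the left and for equal-length lists on the right. Young WT Cre lies at 25 and 32 genes on the left, below 43 to 49 in the other libraries, and all libraries lie between 25 and 30 on the right.

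The design asks which promoters old age or loss of Klf4 adds to those of young WT Cre. A gene was counted as gained when at least 2 libraries of a group and no young WT Cre library had the promoter peak. In deposited lists young EC-K4KO gained 13 of 57 members (22.8%, against 27.3% of all genes), old WT Cre gained 16 (28.1%, against 31.1%) and old EC-K4KO gained 17 (29.8%, against 36.3%). These 3 comparisons share the young WT Cre libraries. The reverse, a promoter peak in both young WT Cre libraries and none of the group, held for 0 members against young EC-K4KO (0.243% of all genes), for 1 against old WT Cre (0.423%), and for 0 against old EC-K4KO (0.455%). That 1 gene was Dnajc14, whose start site lay under a peak in all 9 libraries, named Tmem198b in both old WT Cre libraries. Leaving out young WT Cre replicate 2, the longer of that pair, raised the young EC-K4KO gains from 13 to 20.

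A promoter peak in all 7 other libraries and in neither young WT Cre library was seen for 10 members (17.5%), against 14.1% of all genes. Dnajc4, a class C J-domain protein, had the best mean rank of these 10 (3205.6). It ranked 3665, 4437 and 6554 in young EC-K4KO, 2490 and 1920 in old WT Cre, and 1307 and 2066 in old EC-K4KO, so that all 4 old libraries stood above the 3 young EC-K4KO libraries. Dnajc30, a mitochondrial J-domain protein, ranked 6552, 4064 and 7116 in young EC-K4KO, 5206 and 6052 in old WT Cre, and 5445 and 5254 in old EC-K4KO. The old ranks lay within the young EC-K4KO range. Dnajc11, which belongs to the mitochondrial contact site machinery, ranked 6036, 4094 and 5586 in young EC-K4KO, 19116 and 6485 in old WT Cre, and 7163 and 6955 in old EC-K4KO, with the 3 young EC-K4KO peaks placed highest in their lists. By fold enrichment the order was another, with 3.72, 9.21 and 8.25 in young EC-K4KO, 3.91 and 8.99 in old WT Cre, and 10.5 and 10.7 in old EC-K4KO.

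Dnaja2, a class A partner of HSP70, ranked 7900, 4990 and 8092 in young EC-K4KO, 11846 and 5670 in old WT Cre, and 6700 and 7276 in old EC-K4KO. Dnajc25, a membrane J-domain protein, ranked 6529, 7396 and 6331 in young EC-K4KO, 7840 and 7077 in old WT Cre, and 9094 and 7070 in old EC-K4KO. In both genes the groups overlapped. Hspa12b, an HSP70 relative enriched in ECs, ranked 7976, 10227 and 9559 in young EC-K4KO, 9758 and 9062 in old WT Cre, and 8577 and 8743 in old EC-K4KO. Dnajc21, a protein of ribosome maturation, ranked 9037, 8192 and 11149 in young EC-K4KO, 8556 and 8611 in old WT Cre, and 8173 and 10650 in old EC-K4KO. Dnajc19, a part of the mitochondrial import motor, ranked 7981, 8420 and 9226 in young EC-K4KO, 9946 and 11051 in old WT Cre, and 9978 and 8494 in old EC-K4KO. Of these 8 genes, old and young EC-K4KO libraries did not overlap in rank in Dnajc4, placed higher in the old lists, and in Dnajc11, placed lower there. The other 6 overlapped. How many of all genes separate in this way was not counted, and the lists compared differ in length. The separation is therefore not read as a trait of these members. Most of the ranks exceed 6157, the length of the shortest young WT Cre list, so a peak of the same rank could not have been listed in that library.

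In equal-length lists the gains were 3 members in young EC-K4KO (Dnajc4, Dnajc11 and Hspa14, 5.26%, against 4.56% of all genes), 2 in old WT Cre (Dnajc4 and Dnajc30, 3.51%, against 3.76%) and 2 in old EC-K4KO (Dnajc4 and Dnajc30, 3.51%, against 3.85%). Hspa14 was among them by name only, since its start site was covered in both young WT Cre libraries at ranks 225 and 200. Without young EC-K4KO replicate 2 that group kept 1 gain. Without young WT Cre replicate 1 the young EC-K4KO gains numbered 5, and without replicate 2 they numbered 6. Without that replicate each old group had 4 gains.

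Strength was compared among the 3265 genes with a promoter peak in all 9 libraries, of which 20 are members. Each gene's rank was turned into a percentile within its library (100 for the strongest), and limma with Benjamini-Hochberg adjustment over all 3265 genes tested the differences in percentile points. Genes absent from a young WT Cre list could not enter this test. Genotype within age called 0 of 20 members, beside 1 of 3265 genes (0.0306%). At an unadjusted p under 0.05 these numbers were 4 members and 448 genes. The median genotype difference was 1.08 points over the 20 members and -0.06 points over all genes.

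The smallest genotype p belonged to Hspa4, an HSP110 relative. Its percentiles were 4.4 and 2.86 in young WT Cre, 37.9, 30.6 and 20 in young EC-K4KO, 27.5 and 29.6 in old WT Cre, and 29.1 and 35.4 in old EC-K4KO. Both young WT Cre libraries stood below the other 7. The difference was 14.79 points (SE 4.10, limma adjusted p = 0.197), and 24.43 points when peaks were ordered by fold enrichment. Hspb1, the small heat shock protein HSP27, had percentiles of 83.6 and 77.5 in young WT Cre, 64.6, 53.4 and 61.9 in young EC-K4KO, 80.4 and 79 in old WT Cre, and 64.6 and 79.7 in old EC-K4KO. Its 3 young EC-K4KO values lay below all WT Cre values, while old EC-K4KO had 1 value among them, and the genotype difference was -14.07 points (SE 4.22, limma adjusted p = 0.212). It was -9.07 points without young WT Cre replicate 1 and -30.96 points when peaks were ordered by fold enrichment, with no call in either. As ranks, the Hspb1 peak stood at 695 and 988 in young WT Cre, 1546, 2038 and 1620 in young EC-K4KO, 817 and 875 in old WT Cre, and 1614 and 873 in old EC-K4KO. Dnajc16, a J-domain protein of the endoplasmic reticulum membrane, came next at 17.68 points (SE 6.42, limma adjusted p = 0.292). It was called without young WT Cre replicate 1 (22.23 points, limma adjusted p = 0.0443), it was 9.23 points without young WT Cre replicate 2 (limma adjusted p = 0.172), and its sign turned to -2.77 points when peaks were ordered by fold enrichment.

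Within young mice, young EC-K4KO minus young WT Cre also called 0 members, beside 3.28% of all genes. The nearest to the threshold were Hspa4 at 25.86 points (SE 5.52, limma adjusted p = 0.055), Dnajc16 at 35.57 points (SE 8.65, limma adjusted p = 0.0736) and Hspb1 at -20.60 points (SE 5.69, limma adjusted p = 0.0938). Hspa4 passed on a normal-score scale and without young WT Cre replicate 1 or young EC-K4KO replicate 3. Dnajc16 also passed without young WT Cre replicate 1, and Dnajc2, a ribosome-associated J-domain protein, without replicate 2. Within old mice, old EC-K4KO minus old WT Cre called 0 members and 0 of 3265 genes (0%), and at an unadjusted p under 0.05 it had 0 members and 97 genes. Whether the genotype differences themselves differ between ages was tested as an interaction, which called 0 members and 0 genes by limma (3 members and 377 genes at an unadjusted p under 0.05).

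Age within genotype called 4 of 20 members, all of class C and all higher in old mice, beside 7.11% of all genes called higher and 8.70% called lower. No member was called lower. The median age difference was 0.36 points over the members and 0.41 points over all genes.

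Dnajc5, the cysteine string protein that chaperones SNARE proteins of exocytosis, had the smallest p. Its percentiles were 13.9 and 18.1 in young WT Cre, 25.7, 30.2 and 37 in young EC-K4KO, 57.1 and 53.5 in old WT Cre, and 58.3 and 53.4 in old EC-K4KO. All 4 old libraries lay above all 5 young ones, and the age difference was 32.09 points (SE 3.28, limma adjusted p = 0.00372). As ranks these were 4478 and 4832, then 3981, 3463 and 3021, then 2041 and 2230, then 1991 and 2299, in the same order of groups. Dnajc5 also rose in old WT Cre against young WT Cre (39.30 points, SE 4.84, limma adjusted p = 0.0121) and in old EC-K4KO against young EC-K4KO (24.89 points, SE 4.42, limma adjusted p = 0.0305). The latter call was kept under 4 of 14 alternatives (limma adjusted p from 0.0278 to 0.252) and was lost without young EC-K4KO replicate 1 or 2 and without any 1 old library.

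Dnajc16 had percentiles of 53.2 and 21.9 in young WT Cre, 78.1, 71.2 and 70.1 in young EC-K4KO, 88.7 and 80.1 in old WT Cre, and 83.8 and 84.5 in old EC-K4KO. Old libraries again stood above all young ones, and the young EC-K4KO libraries stood between both. The age difference was 28.95 points (SE 6.42, limma adjusted p = 0.0271), and it was 46.85 points in WT Cre alone (SE 9.48, limma adjusted p = 0.0382). The WT Cre difference was 29.20 points without young WT Cre replicate 2, and its call was kept under 5 of 14 alternatives (limma adjusted p from 0.0154 to 0.511). It was lost with the replicate block (limma adjusted p = 0.0638), with order by fold enrichment (16.26 points), without young EC-K4KO replicate 2 or 3 and without any 1 old library. Ordered by fold enrichment, the age difference of Dnajc16 was 3.44 points and its call was lost (limma adjusted p = 0.839). In ranks the peak moved from 2129 and 4425 in young WT Cre and 928, 1205 and 1248 in young EC-K4KO to 457 and 827 in old WT Cre and 676 and 642 in old EC-K4KO.

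Dnajc17, an essential J-domain protein with an RNA recognition motif, had percentiles of 51 and 32.6 in young WT Cre, 41.8, 61.6 and 47.5 in young EC-K4KO, 69.1 and 59.5 in old WT Cre, and 75 and 73 in old EC-K4KO. The old EC-K4KO values lay above all young ones, and 1 old WT Cre value lay below 1 young EC-K4KO value. The age difference was 23.09 points (SE 5.69, limma adjusted p = 0.0363). Its ranks were 2232 and 3533 in young WT Cre, 2798, 1654 and 2362 in young EC-K4KO, 1381 and 1878 in old WT Cre, and 1091 and 1208 in old EC-K4KO.

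Dnajc13, an endosomal J-domain protein involved in membrane trafficking, had percentiles of 78.3 and 69.7 in young WT Cre, 81.2, 83 and 69.5 in young EC-K4KO, 89.4 and 86.8 in old WT Cre, and 91.9 and 91.8 in old EC-K4KO. All old values exceeded all young values, with an age difference of 14.01 points (SE 3.79, limma adjusted p = 0.048). Its ranks were 927 and 1343 in young WT Cre, 781, 686 and 1275 in young EC-K4KO, 425 and 537 in old WT Cre, and 316 and 329 in old EC-K4KO. The call of Dnajc13 was lost without any 1 of the 9 libraries. Those of Dnajc16 and Dnajc17 were lost without any 1 old library, and also without young EC-K4KO replicate 2 or 3 for Dnajc16 and without young WT Cre replicate 2 or young EC-K4KO replicate 1 or 3 for Dnajc17. Dnajc5 was called without each of the 9 libraries in turn.

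**Figure D3:**
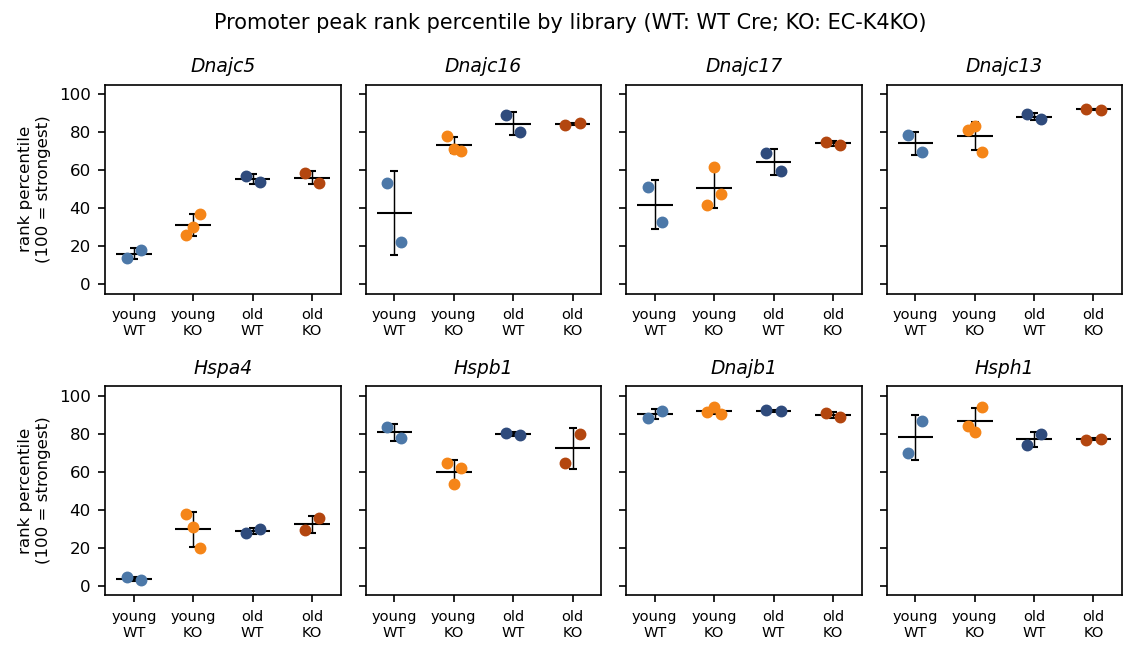
Percentile of the promoter peak's rank among the 3265 genes tested (y axis, 100 for the strongest) in each library (points) by group, with mean (line) and SD (bar), for the 4 genes called by age, the 2 with the smallest genotype p and 2 inducible genes. Old libraries lie above all young ones for Dnajc5, Dnajc16 and Dnajc13, young WT Cre lies at 4.4 or less for Hspa4, and Dnajb1 stays between 88.3 and 93.7.

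The order of peaks mattered for the age comparison. Ordered by fold enrichment instead of -log10 p, 7 of 20 members were called, and only Dnajc5 (39.01 points) and Dnajc17 (35.92 points) were called by both orders. Hspa4 was then called higher in old mice (23.04 points, limma adjusted p = 0.0285), and 4 HSP70 system genes were called lower. By limma these were Hspa8 (-43.09 points, adjusted p = 0.0296), Hspa13 (-37.82 points, adjusted p = 0.0449), Dnajb1 (-31.58 points, adjusted p = 0.00871) and Hspa1a (-24.29 points, adjusted p = 0.0369). When any peak over a start site was used, Dnaja1 was called lower in old mice as well (-15.45 points, SE 4.09, limma adjusted p = 0.0429 among 3608 genes). How many of all genes were called by age in the fold order, or with any peak over a start site, was not counted. These member counts therefore have no share of all genes beside them. The genotype comparison called 0 members in either order.

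Old against young libraries of 1 genotype gave fewer calls. Old WT Cre minus young WT Cre called 2 members higher, Dnajc5 and Dnajc16, beside 2.70% of all genes, and old EC-K4KO minus young EC-K4KO called Dnajc5 alone, beside 1.72%. Leaving out either old WT Cre library removed both calls of the former. Promoter peaks were found for 0 of 8 mural markers in all 5 young libraries, 0 and 2 in old WT Cre, and 5 and 4 in old EC-K4KO, and for 7 to 14 of 16 endothelial markers in young and 14 or 15 in old libraries. The part of these markers in the age calls was not tested. Of the 6 endothelial markers tested, Cldn5, Flt1 and Slc2a1 were called lower in old mice.

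The promoters of 3 of the 4 age-called genes, 150 bases before the start site on GRCm38.p6, held no heat shock element of the 2-unit form. In the longer windows searched above, 21.4% of the family's windows and 12.8% of all windows held this element. Most windows thus lack it, and its absence here is not read as a trait of the age-called genes. The 3 promoters are printed in lower case for Dnajc16 (chr4:141790645-141790794, - strand), Dnajc17 (chr2:119208796-119208945, - strand) and Dnajc13 (chr9:104262931-104263080, - strand).
Dnajc16: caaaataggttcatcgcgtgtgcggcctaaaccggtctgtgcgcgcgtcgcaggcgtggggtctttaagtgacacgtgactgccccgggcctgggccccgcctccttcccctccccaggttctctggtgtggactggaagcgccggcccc
Dnajc17: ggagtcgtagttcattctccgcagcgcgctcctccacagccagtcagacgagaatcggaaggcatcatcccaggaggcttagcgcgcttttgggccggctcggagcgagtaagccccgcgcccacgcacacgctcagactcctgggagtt
Dnajc13: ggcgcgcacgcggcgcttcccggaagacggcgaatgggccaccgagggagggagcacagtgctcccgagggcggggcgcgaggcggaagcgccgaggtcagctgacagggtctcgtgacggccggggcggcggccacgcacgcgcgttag

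Other chaperone pathways gave a background for the family. Of 5 heat shock factor genes (Hsf1, Hsf2, Hsf4, Hsf5 and the binding protein Hsbp1), 2 and 0 had a promoter peak in young WT Cre and 3 to 5 elsewhere. In all 9 libraries 0 had one, so 0 could be tested. Peaks over a start site but named for a neighbour were not counted for these lists. Of 12 genes of HSP90 and its partners, 7 and 8 had one in young WT Cre and 11 or 12 elsewhere, 7 were tested, and Hsp90ab1, the constitutive HSP90, was called lower in old mice (-19.67 points, SE 4.12, limma adjusted p = 0.0235). Among 13 HSP70 partners such as the Bag nucleotide exchange factors, 6 and 7 had a promoter peak in young WT Cre and 10 to 12 elsewhere, and 0 of 5 tested were called. Among 14 genes of the cytosolic chaperonin and prefoldin, which fold actin and tubulin, 4 and 7 had one in young WT Cre and 8 to 11 elsewhere, and of 3 tested Tcp1 was called higher (16.95 points, SE 2.95, limma adjusted p = 0.0135). Genotype called 0 genes of these lists. Over all genes, a promoter peak was present for 30.5% and 42.5% in young WT Cre and 64.1% to 85.7% elsewhere. Age called 7.11% of all tested genes higher and 8.70% lower. Among the 6157 strongest peaks, the HSP90 list had 7 and 8 genes in young WT Cre and 6 to 10 elsewhere. The HSP70 partners had 6 and 7 against 5 to 9. The heat shock factor list had 2 and 0 against 2 or 3, and the chaperonin list 4 and 5 against 5 to 7.

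Away from promoters, the peaks named for the family merged into 157 regions near 43 genes, and 97 of them were seen in a single library. Peaks outside the promoter window were 19.4% and 22% of the family's peaks in young WT Cre, 36.8% to 46.4% in young EC-K4KO, 52.5% and 59.5% in old WT Cre, and 55% and 57.8% in old EC-K4KO. The same share over all peaks was 36.8% and 43.5%, 63.2% to 65.9%, 68.5% and 76.8%, and 73.1% and 75.6%, above the family's share in each library.

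Only 2 such regions held a peak in all 9 libraries. The first, at -3118 bp from the annotated start of Dnajb5 (chr4:42949526-42950426), ranked 384 to 2215 and covered a GENCODE start site of this class B gene. The other, 69655 bp downstream of the start of Dnajc3 (chr14:119007266-119007916), lay in an intron of Uggt2, a folding sensor of the endoplasmic reticulum, and ranked 673 to 3971. In 6 regions all 7 libraries other than young WT Cre had a peak. They lay upstream of the start sites of Hspa12b (-2995 bp), Dnajc12 (-3897 bp), Dnajb1 (-5746 bp) and Hspa4 (-7988 bp), 14723 bp downstream of the Hspb8 start at its transcript end, and 44662 bp downstream of the Dnajc3 start at its transcript end. Of these 6, the Hspa12b region (best rank 3390) and the Hspb8 region (best rank 5004) held a peak among the 6157 strongest of a library. The other 4 did not. How many regions of all genes were in all 9 libraries, or missing only from young WT Cre, was not counted. The young WT Cre lists are the shortest, so these counts are not read as a trait of the family.

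Hspb1, Hspb8 and Hspa12b, chosen after their values were seen, show how such peaks lay within 20 kb of the start. Peaks away from the Hspb1 start numbered 0 and 2 in young WT Cre, 1, 3 and 3 in young EC-K4KO, and 3 in each old library. One of them, 15975.5 bp downstream by its median centre, occurred in 8 libraries at ranks 4789 to 9189. Hspb8, which works with the co-chaperone Bag3 in selective autophagy, had 1 and 0 such peaks in young WT Cre, 2, 3 and 3 in young EC-K4KO, and 3 in each old library. Hspa12b had 0 and 1 in young WT Cre, 1, 3 and 4 in young EC-K4KO, 4 and 4 in old WT Cre, and 3 and 4 in old EC-K4KO. No test was run on these counts, and the same counts over all genes were not made. The young WT Cre lists held 6157 and 9598 peaks. Peaks of the Hspb1 region at -8101.5 bp ranked 12944 to 22706 elsewhere, so a peak of such rank could not have been listed there.

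**Figure D4:**
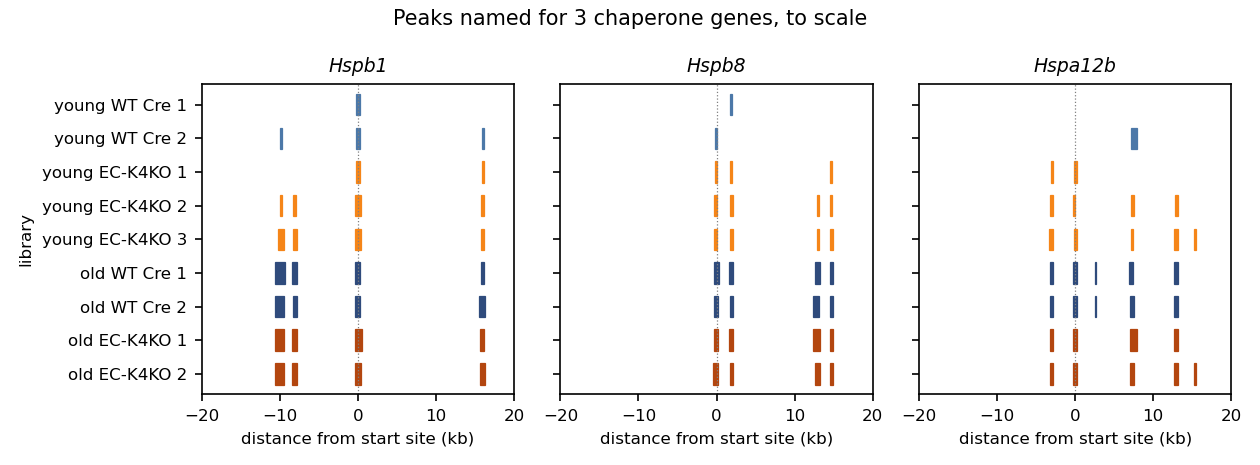
Peaks named for Hspb1, Hspb8 and Hspa12b in each library (rows), drawn to scale by distance of the peak from the start site (x axis in kb, negative upstream, within 20 kb). Hspb1 has a peak at its start in all 9 libraries, Hspb8 in 8 and Hspa12b in the 7 libraries other than young WT Cre, and flanking peaks recur at the same distances.

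The remaining members had lower-ranked or rarer promoter peaks. Of those found in all 9 libraries, ranks were 791 to 3191 for Dnajc10, 1102 to 3944 for Dnajc27, 1842 to 4961 for Dnajc1 and 3951 to 9733 for Dnajc2. Dnajb2, Dnaja3, Dnajc7, Dnajc18, Hspb8 and Hspa4l had a promoter peak in 8 libraries and lacked it in 1 young WT Cre library, with mean ranks of 3895.8 for Dnaja3 to 10457.1 for Dnajc18. Dnajc8 and Dnaja4 lacked it in both young WT Cre libraries (mean ranks 11687.4 and 12363), Dnajc15 lacked it there and in young EC-K4KO replicate 2 (15747), and Dnajc24 lacked it in young WT Cre replicate 1 and young EC-K4KO replicate 1 (10643). Dnajc9, Dnajc28, Dnajb3 and Hspa12a had one in all 4 old libraries and in 1 young EC-K4KO library each, with ranks between 11513 and 36165. Dnajc22 and Hspb9 had one in 4 libraries, the best of them ranked 19297, Dnajc12 in 2, and Hspb2 and Hspb3, both genes of muscle, in 1 each.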

How the data were processed

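Each of the 9 Omni-ATAC-seq libraries has its own peak list on mm10 (GRCm38). According to the methods of the study, reads were trimmed with TrimGalore, aligned with Bowtie2, and cleared of duplicates and poorly mapped pairs, and MACS2 called broad peaks on paired fragments. Peaks were called per library, as the peak names show. The deposited lists give, per peak, a score, a fold enrichment (a ratio to local background) and -log10 p and -log10 q. Their annotation tables add a gene name and, in bp, how far each peak centre lies from that gene's start, also from the authors (HOMER column layout; the methods name ChIPseeker). Longer lists reach weaker peaks, and depth is unknown, so only presence, position and rank were used. DiffBind with DESeq2, the authors' test on reads, could not be run without read counts.

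Members and lists were chosen with earlier results of these data known. One gene that the name pattern would include is not reported here. Values in every library are given for the 10 members with the best mean rank over 9 libraries, those called in a contrast or with the 3 smallest p by genotype, up to 8 found in every library of a group but not in young WT Cre, and 10 stress-inducible genes. Ranks became percentiles among 3265 genes present in all 9 libraries and were tested with limma 3.58.1 in R 4.3.3 (4 group means, empirical Bayes, threshold 0.05). The script was tested on simulated data. Figures were drawn with matplotlib 3.10.9, and tables were made in Python 3.11.15 with scipy 1.17.1, pandas 2.3.3 and numpy 2.4.6. Start sites came from GENCODE M21 and promoters from RefSeq on GRCm38.p6. Alternatives were promoter windows of 500 and 3000 bp, any peak over a start site, q of 0.05 or less, order by fold, the 2000 strongest peaks, normal scores, absent genes tied below, a replicate block, an exact permutation test and leaving out each library.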

Additional observations from a re-analysis of the deposited data

How the results depend on the processing

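In deposited lists the mean difference in member promoters kept its direction under all 13 alternatives. It moved by less than the spread between replicates (SD 3.01), from 7.33 to 10.83 genes for EC-K4KO and from 9.67 to 13.58 genes for old age. None of these alternatives made the lists equal in length. The EC-K4KO figure averages young mice (means of 28.5 in WT Cre and 45.7 in EC-K4KO) and old mice (48 and 49). In equal-length lists the age difference of -0.08 genes became 2.08 with any peak over a start site and -4.17 with order by fold, and the other 13 alternatives stayed within the SD of 1.62, as did all 15 for genotype. Leaving out 1 library gave 10 to 20 gained members in young EC-K4KO, and at equal length 1 to 6 in young EC-K4KO, 2 to 4 in old WT Cre and 2 to 4 in old EC-K4KO. Gains could not be counted in an old group left with 1 library.

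The number of members called by limma was less stable. For age (4 members) it was 7 with order by fold, 2 with absent genes tied below, 0 by the exact permutation test (60 arrangements, smallest p 0.0167, smallest adjusted p 0.118 over all genes, 0 of 3265 genes called, 2 members at the smallest p) and 1 to 4 without 1 library. For genotype (0 members) it was 0 to 1 without 1 library, the 1 being Dnajc16 without young WT Cre replicate 1, and 0 under all others. For young EC-K4KO minus young WT Cre (0) it was 1 with normal scores and 0 to 2 without 1 library. For old WT Cre minus young WT Cre (2) it was 1 with absent genes tied below and 0 to 3 without 1 library. For old EC-K4KO minus young EC-K4KO (1) it was 0 with normal scores, 0 with absent genes tied below and 0 to 1 without 1 library. Old EC-K4KO minus old WT Cre called 0 members in all 14. The genotype difference of Dnajc16 (17.68 points) turned to -2.77 with order by fold. The cause was not tested. The adjusted p of Dnajc5 for age was 0.00259 to 0.022 over the limma alternatives that kept all 9 libraries. By the exact permutation test it was 0.118, the smallest adjusted p that test gave for any gene.

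With the replicate number as a block, age called 2 members (Dnajc5 and Dnajc16), old WT Cre minus young WT Cre 1, old EC-K4KO minus young EC-K4KO 0, and genotype, young EC-K4KO minus young WT Cre and old EC-K4KO minus old WT Cre 0 each. Over 12 pairs of same-numbered libraries of different groups, r between their deviations was -0.02 to 0.15. Over 18 pairs of different number it was -0.15 to 0.10. Deviations in a group of 2 libraries mirror each other, so r takes opposite signs by construction. These ranges therefore cannot show whether the numbers pair the libraries. Depth is unknown and limits what absence from the short young WT Cre lists can show.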
